A study of Mus musculus with 6 samples.

Results

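The 32 genes described here encode the glucose and lactate transporters, the glycolytic enzymes, the HIF transcription factors with their prolyl hydroxylases, and a set of classical HIF target genes. They were taken by symbol from the 56748 genes of the deposited count table, and all 32 were found and tested. The data are RNA-seq counts from 6 libraries of ADSC, adipose-derived stem cells of the mouse, which are stromal cells cultured out of fat. Per the labels, 3 libraries came from ADSC overexpressing VLA-4 and LFA-1, the leukocyte integrins that bind VCAM-1 and ICAM-1. The other 3 came from mock ADSC of genotype WT, and the titles alone read only oe and mock. The treatment protocol says that both subunit sets were transduced together and names an empty vector for the comparison cells, while the design text calls those cells unmodified. Vector, promoter, clonality, cell age and donor strain are not given in the labels, and no label ties a library to its own culture or animal. The spread behind each p-value is that of these 6 libraries and may be technical. All cells were grown per the labels in DMEM with 5.5 mmol/L glucose and serum, with no oxygen level named.

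The labels were checked on the transduced subunits. In the libraries labelled overexpressing, Itga4, the alpha chain of VLA-4, had 2.23, 2.79 and 2.50 CPM (counts scaled to a common depth, with TMM factors), against 8.004, 5.05 and 6.48 CPM in the libraries labelled mock. It was lower there (log2 fold change -1.38, SE 0.211, edgeR adjusted p = 1.28e-05), and Itgb1, its beta chain, was lower as well (log2 fold change -0.32, SE 0.058, edgeR adjusted p = 9.16e-05). The LFA-1 subunits had 7 counts of Itgal in the 3 libraries labelled overexpressing and 7 in those labelled mock, with 15 counts of Itgb2 under the overexpressing label and 38 under the mock label, too few to be tested. The labels do not say whether the transduced sequences would be counted in these mouse genes, so the counts go against the label only if they would. Each direction below is between libraries labelled overexpressing and libraries labelled mock. Library totals ran from 15723888 to 18185832 counts under the overexpressing label and from 16904703 to 18381083 under the mock label, so that 3 counts equal 0.160 to 0.185 CPM.

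The counts of called markers below stand beside 23.0% lower and 22.3% higher over all tested genes (edgeR adjusted p under 0.05). Of the mesenchymal stromal markers, 7 of 10 were lower in the libraries labelled overexpressing and none was higher. Their summed level was 7460 to 9093 CPM under the overexpressing label and 16167 to 17411 CPM in the mock libraries. Most of that sum was Col1a1, while Cd44 and Pdgfra did not pass the test. Of 8 Schwann cell and neural crest markers, 5 were lower and none was higher, with a summed level of 4.68 to 5.11 CPM in the libraries labelled overexpressing and 29.0 to 35.2 CPM in the mock libraries. Among them, Cdh19 and Foxd3 had 0 counts in every library labelled overexpressing. Macrophage markers summed to 14.2 to 16.4 CPM in the libraries labelled overexpressing and 18.8 to 22.4 CPM in the mock libraries. Of their 3 tested genes, 1 was lower (Csf1r), while Cd68 and Lyz2 did not pass the test. The sparse markers went both ways: Adgre1 had 5 counts, all in mock replicate 1, and Itgam had 8, all in overexpressing replicate 3. Endothelial markers summed to 22.0 to 22.8 CPM in the libraries labelled overexpressing and 15.6 to 18.4 CPM in the mock libraries. Of 4 tested genes, 1 was higher (Tek) and 1 lower (Pecam1, log2 fold change -2.74). Tek averaged 15.5 CPM under the overexpressing label, most of the sum there, and 6.02 CPM under the mock label. The log2 fold change was below 0 for the 3 other tested genes, with a median of -0.50 over the 4. Pericyte and smooth muscle markers summed to 118 to 141 CPM in the libraries labelled overexpressing and 140 to 148 CPM in the mock libraries, with 1 of 4 tested genes higher and 3 lower, and Kcnj8 was at 0 counts in all 6 libraries. The mesothelial markers summed to 29.8 to 32.8 CPM under the overexpressing label and 39.6 to 44.9 CPM under the mock label, nearly all of it Krt19, with Wt1 at 0 counts. Adipocyte and lymphocyte markers stayed at or below 0.222 CPM in sum in every library, and proliferation genes summed to 230 to 237 CPM in the libraries labelled overexpressing and 240 to 259 CPM in the mock libraries (3 of 6 lower, 1 higher). Mitochondrially encoded genes held 1.84 to 2.16% of counts under the overexpressing label and 2.02 to 2.19% under the mock label. These levels moved with the same 2 groups as every result below, and their part in those results was not tested.

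Glycolysis splits glucose into pyruvate, and lactate dehydrogenase turns pyruvate into lactate, which leaves the cell through monocarboxylate transporters. When oxygen is plentiful, prolyl hydroxylases mark the HIF alpha subunits for degradation through the VHL ubiquitin ligase; when oxygen is scarce, HIF accumulates, pairs with Arnt and binds hypoxia response elements, whose core can read ACGTG. Nearly every step of glycolysis has at least 1 gene that HIF can activate, and stromal cells in culture are known for a high glycolytic rate. HIF-1 activity is set largely at the protein level, which counts of transcripts do not measure.

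To show the sequences on which HIF could act, the 250 bases before the start of 6 genes are printed, with each ACGTG, or CACGT for the other strand, in capitals. They come from the RefSeq promoter table (build GRCm38.p6, not the mm39 of the deposited table), on the strand of the gene. Where a gene had several starts there, the most upstream was taken, here and in the shares below, and other starts were not searched. Slc16a3 and Pdk1 had the largest decreases below, Ldha and Bnip3 are textbook HIF targets, Hif1a encodes the factor itself, and Car9 was higher.
Slc16a3, chr11:120948817-120949066, plus strand: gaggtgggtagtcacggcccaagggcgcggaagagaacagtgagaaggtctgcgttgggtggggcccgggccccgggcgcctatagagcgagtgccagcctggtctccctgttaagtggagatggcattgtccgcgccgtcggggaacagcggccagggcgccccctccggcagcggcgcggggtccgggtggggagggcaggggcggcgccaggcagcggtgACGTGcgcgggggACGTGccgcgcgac
Pdk1, chr2:71872974-71873223, plus strand: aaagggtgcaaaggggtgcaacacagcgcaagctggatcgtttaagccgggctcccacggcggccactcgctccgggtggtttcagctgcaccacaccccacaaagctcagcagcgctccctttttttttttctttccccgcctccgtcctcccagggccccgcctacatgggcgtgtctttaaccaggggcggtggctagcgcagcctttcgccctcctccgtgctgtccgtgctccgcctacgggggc
Ldha, chr7:46845554-46845803, plus strand: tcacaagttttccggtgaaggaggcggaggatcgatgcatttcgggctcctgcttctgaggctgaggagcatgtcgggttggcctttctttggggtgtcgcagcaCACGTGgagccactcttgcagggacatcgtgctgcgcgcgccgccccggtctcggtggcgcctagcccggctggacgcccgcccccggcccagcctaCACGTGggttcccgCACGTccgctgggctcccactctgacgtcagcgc
Bnip3, chr7:138909507-138909756, minus strand: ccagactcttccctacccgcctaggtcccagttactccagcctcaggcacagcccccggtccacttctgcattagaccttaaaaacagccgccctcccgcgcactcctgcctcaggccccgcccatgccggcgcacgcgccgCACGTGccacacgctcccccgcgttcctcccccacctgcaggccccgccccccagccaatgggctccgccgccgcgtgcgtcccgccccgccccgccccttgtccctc
Hif1a, chr12:73907617-73907866, plus strand: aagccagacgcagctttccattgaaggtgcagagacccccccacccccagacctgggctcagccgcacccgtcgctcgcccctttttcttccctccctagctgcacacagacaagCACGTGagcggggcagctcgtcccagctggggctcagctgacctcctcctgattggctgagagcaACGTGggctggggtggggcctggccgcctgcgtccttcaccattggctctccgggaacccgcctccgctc
Car9, chr4:43506776-43507025, plus strand: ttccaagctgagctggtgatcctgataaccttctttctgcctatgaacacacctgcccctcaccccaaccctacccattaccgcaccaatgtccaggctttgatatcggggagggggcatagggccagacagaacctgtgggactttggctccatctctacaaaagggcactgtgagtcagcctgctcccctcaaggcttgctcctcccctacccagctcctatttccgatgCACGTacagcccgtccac

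In the Slc16a3 window the matches began 27 and 14 bases before the start, and in the Car9 window the only match began 18 bases before it. The Ldha window held 5 matches, of which 4 came from a pair of palindromes CACGTG, each read once on either strand. CACGTG is also the E-box that Myc and other helix-loop-helix factors bind. Bnip3 had 1 such palindrome, Hif1a had 1 palindrome and a single match 70 bases before the start, and the Pdk1 window held no ACGTG or CACGT. Of the 29 genes with an entry in the promoter table (no entry: Slc2a3, Epas1, Ndrg1), 15 held a match (51.7%), against 4467 of all 27025 promoters of the same length (16.5%) and 2287 of the 10489 tested genes with an entry (21.8%). As 10489 of 14502 tested genes had one, that share is incomplete, and no split by direction of change is given. The other form of the core, GCGTG or CACGC for the other strand and not in capitals, was in 14 of the 29 windows (48.3%), against 28.3% of all promoters and 45.6% of the tested genes with an entry. The Pdk1 window held 1 of these and the Bnip3 window 3. The genes include chosen HIF targets, so these shares describe the list, and a match is not a bound site.

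In the libraries labelled overexpressing, 24 of the 32 genes were lower, 2 were higher and 6 did not pass the test. The background is broad: of 14502 tested genes, 45.3% were called in either direction at an edgeR adjusted p under 0.05, 23.0% lower and 22.3% higher. Among tested genes of at least 10 CPM, the range of most of these 32, 28.8% were lower. The median log2 fold change was -0.52 over the 32 genes and 0.01 over all tested genes. The groups did not overlap for 26 of the 32 genes, as for 53.4% of tested genes, and 8 were lower by 2-fold or more, as were 4.84% of tested genes. In bulk RNA, fewer cells of a type and less RNA per cell cannot be told apart. Without TMM scaling, the split over all genes became 4598 higher and 2385 lower, against 3233 higher and 3339 lower with it, and the median of all tested genes moved to 0.12; 22 of the 32 genes were then lower and 2 higher.

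**Figure D1:**
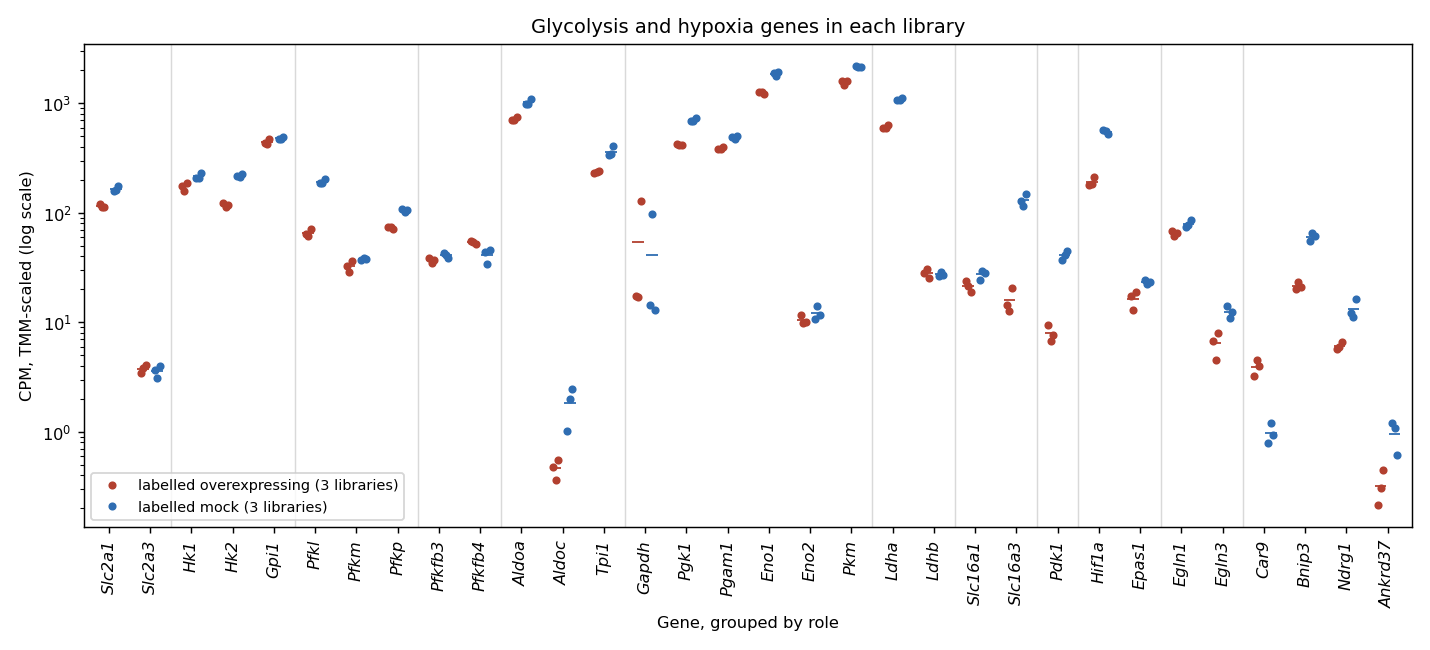
CPM on TMM-scaled library sizes (log scale) of each of the 32 genes, grouped by role, with 1 point per library for the 3 libraries labelled overexpressing and the 3 labelled mock, and a short line at each mean. The points of the libraries labelled overexpressing lie below those of the mock libraries for 24 called genes and above them for Pfkfb4 and Car9, and Gapdh is spread over both groups.

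Of the glucose transporters, Slc2a1 (GLUT1), the widespread basal one, was the more abundant. Slc2a1 (ENSMUSG00000028645, chromosome 4, 118965908 to 118995180, mm39) had 119, 113 and 112 CPM in the libraries labelled overexpressing, against 160, 164 and 174 CPM in the mock libraries. Every library labelled overexpressing was below every mock library, and the difference passed the test (log2 fold change -0.53, SE 0.058, edgeR adjusted p = 1.26e-07). Slc2a3 (GLUT3), a high-affinity transporter typical of neurons, had 3.46, 3.82 and 4.06 CPM under the overexpressing label, against 3.69, 3.12 and 3.95 CPM under the mock label, and the groups overlapped (log2 fold change 0.08, SE 0.206, edgeR adjusted p = 0.789). An amount equal to 24.9% of its counts lies on the pseudogene Gm4482 on the same strand within the gene, so its level is uncertain. Per kilobase of gene length, Slc2a1 averaged 32.8 ± 1.09 CPM in the libraries labelled overexpressing and 47.3 ± 2.16 CPM in the mock libraries (SD, n = 3 each), against 0.522 ± 0.042 CPM under the overexpressing label and 0.495 ± 0.059 CPM under the mock label for Slc2a3.

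Hexokinases trap glucose by phosphorylation. Hk2, the inducible isoform of muscle, fat and tumours, had 122, 113 and 119 CPM in the libraries labelled overexpressing, against 216, 212 and 228 CPM in the mock libraries. This was 1.85-fold lower with no overlap (log2 fold change -0.89, SE 0.057, edgeR adjusted p = 1.86e-11). Hk1, the housekeeping isoform, was lower too, with 177, 157 and 189 CPM under the overexpressing label, against 207, 210 and 231 CPM under the mock label (log2 fold change -0.31, SE 0.066, edgeR adjusted p = 0.000563). Gpi1, which turns glucose 6-phosphate into fructose 6-phosphate, averaged 446 ± 22.3 CPM in the libraries labelled overexpressing and 480 ± 15.8 CPM in the mock libraries (SD, n = 3 each), and its groups overlapped (edgeR adjusted p = 0.132). Without overexpressing replicate 3 its adjusted p was 0.0453, and without TMM scaling its log2 fold change was 0.01 in place of -0.11.

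Phosphofructokinase commits sugar to glycolysis, and all 3 of its genes were lower. Pfkl (liver type; ENSMUSG00000020277, chromosome 10, 77822781 to 77845917, mm39) had 63.5, 61.1 and 70.5 CPM in the libraries labelled overexpressing, against 186, 186 and 205 CPM in the mock libraries. It was 2.95-fold lower, with the groups far apart (log2 fold change -1.56, SE 0.066, edgeR adjusted p = 8.85e-15). Pfkp (platelet type) had 74.4, 74.0 and 71.5 CPM under the overexpressing label, against 107, 102.2 and 107 CPM under the mock label (log2 fold change -0.53, SE 0.060, edgeR adjusted p = 1.98e-07). Pfkm (muscle type) had 32.7, 28.7 and 36.1 CPM under the overexpressing label, against 36.8, 39.1 and 38.1 CPM under the mock label, a small difference near the threshold (log2 fold change -0.22, SE 0.087, edgeR adjusted p = 0.04). The Pfkm call was lost when any library except overexpressing replicate 3 was left out (adjusted p = 0.0526 to 0.208), by DESeq2 (adjusted p = 0.0713) and without TMM scaling (adjusted p = 0.293). Pfkm and Pfkp overlap Senp1 and Pitrm1 on the other strand, and no source used here says whether counting respected strand. Senp1 was higher in the libraries labelled overexpressing (log2 fold change 0.37, edgeR adjusted p = 0.00184), while Pitrm1 did not pass the test (0.06, edgeR adjusted p = 0.452).

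Fructose 2,6-bisphosphate, the strongest activator of phosphofructokinase, is made and removed by the Pfkfb enzymes. Pfkfb4 (ENSMUSG00000025648, chromosome 9, 108820846 to 108861296, mm39) had 55.7, 54.1 and 51.8 CPM in the libraries labelled overexpressing, against 43.5, 34.0 and 45.4 CPM in the mock libraries. It was 1.32-fold higher with no overlap (log2 fold change 0.40, SE 0.089, edgeR adjusted p = 0.000944). Pfkfb3, whose kinase activity strongly exceeds its phosphatase activity, had 38.9, 34.7 and 37.5 CPM under the overexpressing label, against 43.3, 41.2 and 38.8 CPM under the mock label, and missed the threshold (log2 fold change -0.15, SE 0.079, edgeR adjusted p = 0.126).

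Aldolase and triose-phosphate isomerase carry out the split into triose phosphates. Aldoa, the main aldolase here, had 700, 699 and 748 CPM in the libraries labelled overexpressing, against 981, 986 and 1103 CPM in the mock libraries (log2 fold change -0.52, SE 0.059, edgeR adjusted p = 2.32e-07). Tpi1 had 229, 234 and 240 CPM under the overexpressing label, against 337, 344 and 404 CPM under the mock label (log2 fold change -0.63, SE 0.064, edgeR adjusted p = 4.01e-08). Both were lower in every library labelled overexpressing. Aldoc, the brain aldolase, was near the limit of detection, with 25 counts in the 3 libraries labelled overexpressing and 93 in the mock libraries (log2 fold change -1.94, SE 0.424, edgeR adjusted p = 0.000679).

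The later steps of glycolysis repay ATP and end in pyruvate. Pgk1, which makes ATP from bisphosphoglycerate, had 430, 416 and 421 CPM in the libraries labelled overexpressing, against 685, 696 and 740 CPM in the mock libraries (log2 fold change -0.74, SE 0.054, edgeR adjusted p = 1.71e-10). The same direction held for Pgam1, the phosphoglycerate mutase, with 382, 384 and 396 CPM under the overexpressing label, against 497, 476 and 504 CPM under the mock label (log2 fold change -0.34, edgeR adjusted p = 1.47e-05). Eno1, the widespread enolase, had 1269, 1269 and 1230 CPM under the overexpressing label, against 1878, 1797 and 1933 CPM under the mock label (log2 fold change -0.57, edgeR adjusted p = 1.59e-08). Pkm, pyruvate kinase of most tissues, had 1591, 1483 and 1612 CPM under the overexpressing label, against 2201, 2150 and 2156 CPM under the mock label (log2 fold change -0.47, SE 0.056, edgeR adjusted p = 3.7e-07). For these 4 genes every library labelled overexpressing was below every mock library. Eno2, the neuronal enolase, had 11.7, 9.90 and 10.2 CPM under the overexpressing label, against 10.7, 14.2 and 11.7 CPM under the mock label, and its groups overlapped (log2 fold change -0.21, edgeR adjusted p = 0.217).

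Gapdh, the dehydrogenase between the triose phosphates and Pgk1 and a common reference gene, gave no single direction. Gapdh (ENSMUSG00000057666, chromosome 6, 125138678 to 125143430, mm39) had 330, 281 and 2298 counts in the libraries labelled overexpressing, against 253, 1704 and 211 counts in the mock libraries. In CPM these were 17.6, 17.1 and 128 under the overexpressing label and 14.4, 96.65 and 13.0 under the mock label, so that overexpressing replicate 3 and mock replicate 2 stood apart from the other 4 libraries. The fit gave a log2 fold change of 0.38 with an SE of 0.585 (edgeR adjusted p = 0.623). That value became -1.27 without overexpressing replicate 3 (adjusted p = 0.0554) and 1.98 without mock replicate 2 (adjusted p = 0.00887), and close to 0 without mock replicate 1 or 3 (-0.03 and -0.04). Per kilobase, Gapdh averaged 13.1 ± 15.4 CPM in the libraries labelled overexpressing and 10.0 ± 11.6 CPM in the mock libraries (SD, n = 3 each), against 188 ± 3.06 CPM under the overexpressing label and 315 ± 12.9 CPM under the mock label for Pgk1. Pseudogene rows whose symbol begins with Gapdh held 10 counts, and Gapdh pseudogenes under other symbols were not searched. How reads matching several places were counted is not known. Gapdh overlaps Iffo1 on the other strand, which was higher (log2 fold change 1.035, edgeR adjusted p = 8.15e-11). The level of Gapdh in these libraries is uncertain, and no direction is given for it.

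Summed over the 16 other glycolytic enzymes, from hexokinase to lactate dehydrogenase, the level was 6139, 5983 and 6278 CPM in the libraries labelled overexpressing, against 8925, 8781 and 9309 CPM in the mock libraries. The ratio of the group means was 0.681, and the groups did not overlap. With Gapdh counted, 13 of 17 enzymes were lower, none was higher and 4 (Gpi1, Gapdh, Eno2, Ldhb) did not pass the test. Over all tested genes 23.0% were lower, and 28.8% among those of at least 10 CPM. The 13 include Pfkm, whose call was lost in most alternatives that left out 1 library.

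Lactate is made from pyruvate by lactate dehydrogenase and leaves with a proton through the MCT transporters. Ldha, the subunit that favours lactate formation (ENSMUSG00000063229, chromosome 7, 46490899 to 46505051, mm39), had 590, 593 and 637 CPM in the libraries labelled overexpressing, against 1086, 1066 and 1122 CPM in the mock libraries. It was 1.80-fold lower (log2 fold change -0.85, SE 0.056, edgeR adjusted p = 2.59e-11). Ldhb, the subunit that favours pyruvate, had 28.0, 30.8 and 25.3 CPM under the overexpressing label, against 26.7, 28.5 and 27.2 CPM under the mock label, overlapping throughout (log2 fold change 0.03, SE 0.090, edgeR adjusted p = 0.827).

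Slc16a3 (MCT4), the low-affinity exporter of strongly glycolytic cells (ENSMUSG00000025161, chromosome 11, 120839306 to 120851694, mm39), had 14.5, 12.8 and 20.7 CPM in the libraries labelled overexpressing, against 127, 117 and 147 CPM in the mock libraries. The lowest mock library was several times the highest library labelled overexpressing, and the decrease of 8.13-fold was the largest of the 32 genes (log2 fold change -3.02, SE 0.117, edgeR adjusted p = 2.07e-15). Slc16a3 overlaps Csnk1d on the other strand, which had 281% of its counts and did not pass the test (log2 fold change 0.00, edgeR adjusted p = 0.985). Slc16a1 (MCT1), the transporter that moves lactate either way, had 23.9, 21.6 and 19.1 CPM under the overexpressing label, against 24.5, 29.6 and 28.4 CPM under the mock label (log2 fold change -0.35, SE 0.101, edgeR adjusted p = 0.00658). Without both mock replicate 2 and overexpressing replicate 3, the libraries of high Gapdh, the Slc16a1 call was lost (adjusted p = 0.164), as it was without TMM scaling (adjusted p = 0.0558).

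Pdk1 (ENSMUSG00000006494, chromosome 2, 71703568 to 71734202, mm39) encodes the kinase that shuts pyruvate dehydrogenase and so keeps pyruvate from being oxidised in mitochondria. It had 9.41, 6.74 and 7.62 CPM in the libraries labelled overexpressing, against 37.4, 41.6 and 44.7 CPM in the mock libraries. That is 5.18-fold lower, with every library of one group far from the other group (log2 fold change -2.37, SE 0.114, edgeR adjusted p = 9.09e-14).

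**Figure D2:**
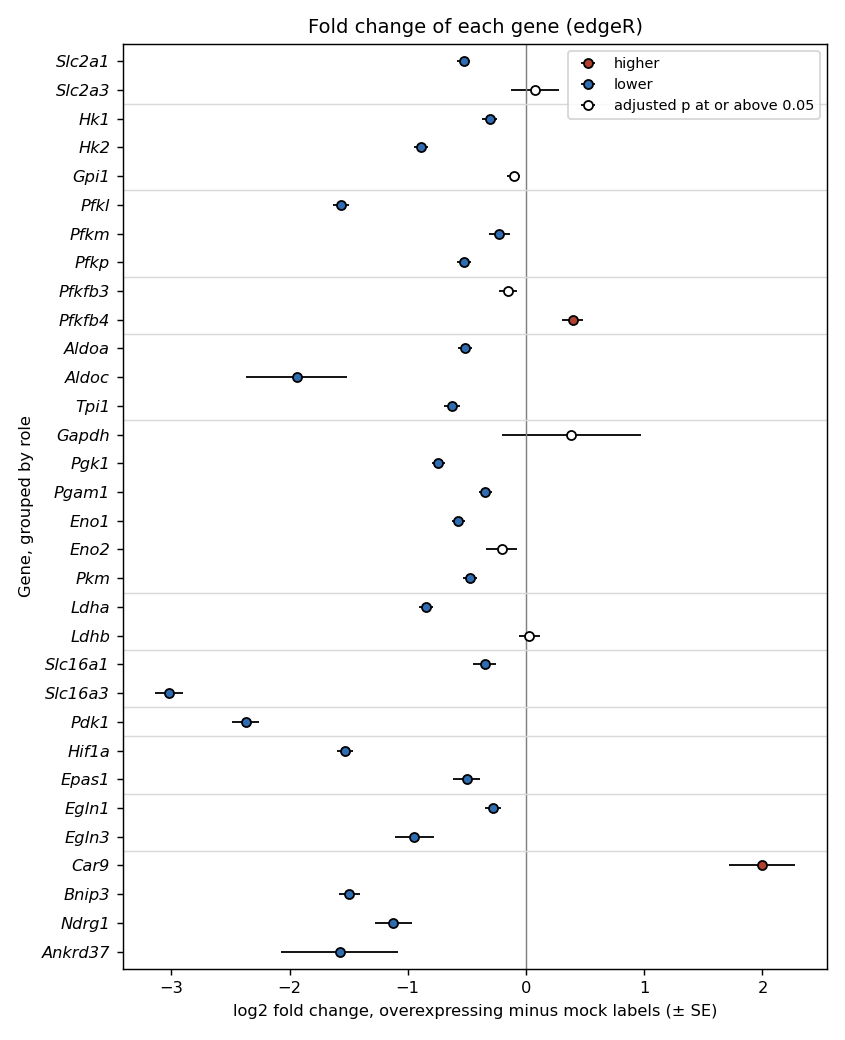
Log2 fold change of each of the 32 genes, libraries labelled overexpressing minus libraries labelled mock, with bars for ± 1 SE of the edgeR fit (3 libraries a group); filled points passed an adjusted p under 0.05. Slc16a3 (-3.02) and Pdk1 (-2.37) lie furthest to the left, Car9 (2.00) furthest to the right, and Gapdh has the widest bar (SE 0.585).

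Hif1a, the oxygen-regulated subunit of HIF-1 (ENSMUSG00000021109, chromosome 12, 73948149 to 73994304, mm39), was itself lower. It had 180, 182 and 212 CPM in the libraries labelled overexpressing, against 567, 563 and 530 CPM in the mock libraries, a 2.89-fold decrease (log2 fold change -1.53, SE 0.064, edgeR adjusted p = 8.06e-15). Epas1, which encodes HIF-2 alpha, had 17.3, 12.9 and 19.1 CPM under the overexpressing label, against 24.2, 22.4 and 23.3 CPM under the mock label (log2 fold change -0.50, SE 0.117, edgeR adjusted p = 0.00119). Of the prolyl hydroxylases, Egln1 (PHD2), the main oxygen sensor, had 68.4, 62.1 and 65.6 CPM under the overexpressing label, against 74.4, 77.9 and 86.0 CPM under the mock label (log2 fold change -0.28, SE 0.069, edgeR adjusted p = 0.00211). Egln3 (PHD3), a hydroxylase that HIF itself induces, had 6.81, 4.55 and 8.005 CPM under the overexpressing label, against 14.1, 10.95 and 12.4 CPM under the mock label (log2 fold change -0.94, SE 0.168, edgeR adjusted p = 7.75e-05). All 4 genes were thus lower, with no library of one group within the range of the other.

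Among the other HIF targets, Bnip3 and Car9 moved in opposite directions. Bnip3, a mitochondrial protein that triggers mitophagy (ENSMUSG00000078566, chromosome 7, 138492565 to 138511248, mm39), had 20.3, 23.1 and 21.2 CPM in the libraries labelled overexpressing, against 55.2, 65.5 and 61.1 CPM in the mock libraries. It was 2.82-fold lower (log2 fold change -1.49, SE 0.086, edgeR adjusted p = 2.26e-12). Ndrg1, a stress-induced gene, had 5.69, 5.95 and 6.56 CPM under the overexpressing label, against 12.1, 11.2 and 16.5 CPM under the mock label (log2 fold change -1.12, SE 0.155, edgeR adjusted p = 3.29e-06). Ankrd37, an ankyrin-repeat gene, had 17 counts in the libraries labelled overexpressing and 50 in the mock libraries (log2 fold change -1.58, SE 0.492, edgeR adjusted p = 0.0117). Its call was lost without overexpressing replicate 1 (adjusted p = 0.0672) or mock replicate 1 (adjusted p = 0.0621), and by DESeq2 (adjusted p = 0.0539). It overlaps the far more abundant Ufsp2 on the other strand, which was lower too (log2 fold change -0.51, edgeR adjusted p = 7.89e-05).

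Car9, the membrane carbonic anhydrase that exports acid from hypoxic cells (ENSMUSG00000028463, chromosome 4, 43506966 to 43513729, mm39), had 3.24, 4.49 and 4.002 CPM in the libraries labelled overexpressing, against 0.795, 1.19 and 0.926 CPM in the mock libraries. It was 4.0-fold higher with no overlap, from 207 counts in the libraries labelled overexpressing and 50 in the mock libraries (log2 fold change 2.00, SE 0.280, edgeR adjusted p = 3.96e-06). The lncRNA Gm12454 on the other strand of Car9 was higher as well, with 172 counts in the libraries labelled overexpressing and 72 in the mock libraries (log2 fold change 1.198, edgeR adjusted p = 0.0012), and unstranded counts of the pair cannot be told apart. Car9 and Pfkfb4 were the 2 higher genes of the 32.

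In the authors' deposited table, 22 of the 32 genes were lower, 2 higher and 8 not called at an adjusted p under 0.05, and 30 had the same call as here. The largest difference in log2 fold change between that table and the edgeR fit was 0.029.

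Families with several genes were compared by shares, the counts per kilobase of 1 gene over those of its family, which do not depend on scaling between libraries. Over 10 families, 12 shares were compared, and 11 had no overlap between the groups. An exact permutation test of 3 against 3 libraries cannot give a two-sided p below 0.1, which is the value of those 11 shares (0.109 after adjustment over the 12).

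The largest shift in a share was in the lactate transporters. Slc16a3 made up 33.5, 33.0 and 47.4% of the Slc16a1 and Slc16a3 total in the libraries labelled overexpressing, against 81.2, 76.7 and 81.2% in the mock libraries, a difference of -41.7 points (exact permutation p = 0.1). Per kilobase, the larger part of the pair was thus Slc16a1 under the overexpressing label and Slc16a3 under the mock label. In overexpressing replicate 3 this order rests on the gene lengths, 5318 bases for Slc16a3 and 4426 for Slc16a1. In counts Slc16a3 was the larger there, with 373 against 344. Overexpressing replicates 1 and 2 had fewer counts of Slc16a3 than of Slc16a1 (272 against 449 and 211 against 356). Pfkl made up 39.1 ± 0.68% of phosphofructokinase in the libraries labelled overexpressing and 59.9 ± 1.17% in the mock libraries (SD, n = 3 each; exact permutation p = 0.1). The share of Pfkm was 38.9 ± 1.81% under the overexpressing label and 23.7 ± 1.01% under the mock label. That of Pfkp was 22.0 ± 1.90% under the overexpressing label and 16.4 ± 0.59% under the mock label. The order of these 2 rests on the gene lengths, 3340 bases for Pfkm and 13401 for Pfkp. In counts Pfkp was the larger, with 3904 against 1737 under the overexpressing label and 5425 against 1955 under the mock label. The Pfkm counts carry the limits given above, among them the overlap with Senp1. Hk1 held 50.7 ± 1.73% of the hexokinase pair in the libraries labelled overexpressing and 40.8 ± 0.70% in the mock libraries. Pfkfb3 held 30.7 ± 1.32% of its pair in the libraries labelled overexpressing and 39.5 ± 4.17% in the mock libraries.

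The other families were held by 1 gene in both groups. Ldha made up 91.1 ± 1.08% of lactate dehydrogenase in the libraries labelled overexpressing and 94.96 ± 0.26% in the mock libraries, and Hif1a 91.7 ± 1.17% under the overexpressing label and 95.7 ± 0.21% under the mock label of the HIF alpha pair. Egln1 made up 88.3 ± 2.57% of the hydroxylase pair under the overexpressing label and 82.5 ± 2.51% under the mock label. Slc2a1 made up 98.4% of its pair under the overexpressing label and 99.0% under the mock label. Aldoa made up 99.94% and Eno1 99.05% under the overexpressing label, against 99.84% and 99.26% under the mock label, and the Eno1 share was the 1 whose groups overlapped (exact permutation p = 0.2).

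**Figure D3:**
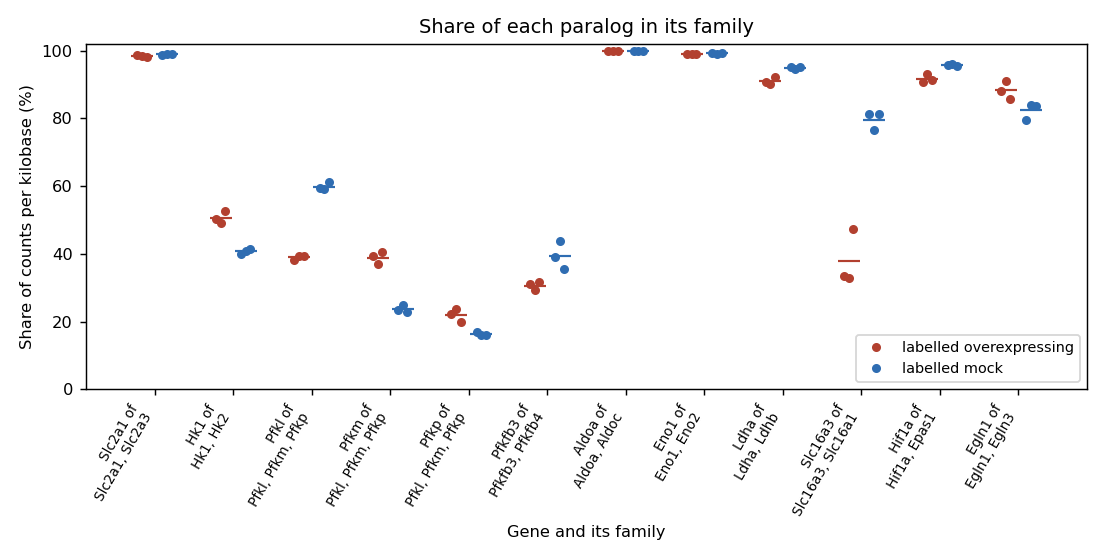
Share of each named gene in the counts per kilobase of its family (%), with 1 point per library for the 3 libraries labelled overexpressing and the 3 labelled mock, and a short line at each mean. Slc16a3 lies between 33.0 and 47.4% in the libraries labelled overexpressing and between 76.7 and 81.2% in the mock libraries, and Pfkl averages 39.1% in the libraries labelled overexpressing and 59.9% in the mock libraries.

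Around these 32 genes, further lists of the same pathways were counted in the same fit, to be read against 23.0% lower and 22.3% higher over all tested genes. Of 37 tested further HIF target genes, 25 were lower, 4 higher and 8 not called in the libraries labelled overexpressing, with a median log2 fold change of -0.44. Adm, the vasodilator peptide adrenomedullin, averaged 28.7 ± 0.67 CPM in the libraries labelled overexpressing and 91.2 ± 1.81 CPM in the mock libraries (log2 fold change -1.67, SE 0.069, edgeR adjusted p = 6.24e-15). P4ha1 and P4ha2, the catalytic subunits of collagen prolyl hydroxylase, were lower by 2.22-fold and 2.46-fold (edgeR adjusted p = 2.19e-13 and 1.61e-14). Hmox1, which breaks down heme and is also a target of NRF2, averaged 717 ± 62.2 CPM under the overexpressing label and 362 ± 8.79 CPM under the mock label and was higher (log2 fold change 0.98, SE 0.062, edgeR adjusted p = 1.22e-11).

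Of 12 tested components of the HIF machinery besides the 32 genes, 3 were lower, 5 higher and 4 not called in the libraries labelled overexpressing, with a median log2 fold change of 0.10. The coactivators Ep300, with 133 ± 7.57 CPM in the libraries labelled overexpressing and 83.9 ± 3.77 CPM in the mock libraries (edgeR adjusted p = 1.02e-08), and Crebbp, with 91.7 ± 7.99 CPM under the overexpressing label and 54.4 ± 3.69 CPM under the mock label (edgeR adjusted p = 2.11e-08), were higher. So was Hif1an, the asparagine hydroxylase that blocks HIF from its coactivators, with 78.4 ± 2.00 CPM under the overexpressing label and 51.6 ± 1.42 CPM under the mock label (log2 fold change 0.60, edgeR adjusted p = 1e-07). Eloc, elongin C of the VHL ligase, was lower (log2 fold change -0.57, edgeR adjusted p = 1.93e-06). The count of lower components was 1 when overexpressing replicate 1 or mock replicate 3 was left out, and 1 without TMM scaling.

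Of 13 tested other enzymes of glycolysis and gluconeogenesis, 4 were lower and 2 higher (median log2 fold change -0.13). Pck2, the mitochondrial PEP carboxykinase, averaged 46.6 ± 4.17 CPM in the libraries labelled overexpressing and 93.7 ± 4.33 CPM in the mock libraries (log2 fold change -1.01, SE 0.072, edgeR adjusted p = 1.21e-10). Pgm1, a phosphoglucomutase, was lower by 0.67 on the log2 scale (edgeR adjusted p = 1.81e-08), Adpgk, the ADP-dependent glucokinase, by 0.31 (edgeR adjusted p = 0.000493), and Bpgm, the bisphosphoglycerate mutase, by 0.41 (edgeR adjusted p = 0.000965). The count of higher enzymes was 1 without overexpressing replicate 1, overexpressing replicate 3 or mock replicate 2.

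Of 9 tested other sugar and monocarboxylate transporters, 3 were lower and 1 higher (median log2 fold change -0.20). Bsg (basigin), the chaperone that carries MCT1 and MCT4 to the membrane, averaged 437 ± 27.9 CPM in the libraries labelled overexpressing and 648 ± 49.5 CPM in the mock libraries (log2 fold change -0.57, SE 0.063, edgeR adjusted p = 1.3e-07). Its relative Emb (embigin) averaged 47.0 ± 3.03 CPM under the overexpressing label and 70.7 ± 1.85 CPM under the mock label (log2 fold change -0.59, edgeR adjusted p = 3.86e-07). The transporter Slc2a10 was lower (log2 fold change -0.39, edgeR adjusted p = 0.00136), and Slc2a6 was higher (0.47, edgeR adjusted p = 0.0245), the only higher gene, whose call was lost without overexpressing replicate 1 or mock replicate 2.

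Of 13 genes of pyruvate entry into mitochondria, 3 were lower and 3 higher (median log2 fold change -0.08; 1 higher without mock replicate 2), near the shares over all tested genes (23.0% lower, 22.3% higher). Beside Pdk1, the kinase Pdk3 was lower (log2 fold change -0.42, edgeR adjusted p = 0.000618), whereas Pdk4, the isoform induced by fasting, averaged 36.5 ± 2.11 CPM in the libraries labelled overexpressing and 28.4 ± 0.38 CPM in the mock libraries (log2 fold change 0.36, edgeR adjusted p = 0.000923). The phosphatase Pdp1, which reopens pyruvate dehydrogenase, and the carrier subunit Mpc2 were lower (log2 fold changes -0.74 and -0.39, edgeR adjusted p = 0.000386 and 0.0025).

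Of 8 tested pentose phosphate genes, 2 were lower and 2 higher (median log2 fold change -0.09), again near the 23.0% lower and 22.3% higher over all tested genes. Pgd, with 361 ± 4.40 CPM in the libraries labelled overexpressing and 283 ± 10.5 CPM in the mock libraries, and Taldo1, with 224 ± 20.02 CPM under the overexpressing label and 169 ± 5.03 CPM under the mock label, were higher (edgeR adjusted p = 1.19e-05 and 1.41e-05). H6pd, the dehydrogenase of the endoplasmic reticulum, averaged 103 ± 5.11 CPM under the overexpressing label and 199 ± 15.8 CPM under the mock label and was lower (log2 fold change -0.95, edgeR adjusted p = 4.76e-11), as was Pgls, the lactonase (log2 fold change -0.27, edgeR adjusted p = 0.00878). The count of lower genes was 1 without overexpressing replicate 1, without mock replicate 3 or without TMM scaling.

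Of 11 tested hexosamine and glycogen genes, 5 were lower and 3 higher (median log2 fold change -0.17), and 2 were lower without TMM scaling. Ugdh, which makes UDP-glucuronate for hyaluronan and other glycans, averaged 494 ± 14.6 CPM in the libraries labelled overexpressing and 283 ± 0.979 CPM in the mock libraries (log2 fold change 0.80, SE 0.053, edgeR adjusted p = 3.03e-11). Uap1, the last enzyme of UDP-GlcNAc synthesis, was higher (log2 fold change 0.34, edgeR adjusted p = 0.000231), while Pgm3 and Ugp2 were lower (log2 fold changes -0.39 and -0.28, edgeR adjusted p = 0.000308 and 0.00101).

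Of 16 tested regulators of glycolysis, 2 were lower and 4 higher (median log2 fold change 0.02), where 45.3% of all tested genes were called in either direction. Prkaa2, an alpha subunit of the energy sensor AMPK, averaged 21.9 ± 2.71 CPM in the libraries labelled overexpressing and 6.53 ± 1.37 CPM in the mock libraries, a 3.35-fold difference (log2 fold change 1.74, SE 0.140, edgeR adjusted p = 8.41e-10). Mtor and Rptor, both of the growth kinase complex mTORC1, were higher (log2 fold changes 0.51 and 0.41, edgeR adjusted p = 5.08e-07 and 2.49e-05). Txnip, a brake on glucose uptake, was lower (log2 fold change -0.38, edgeR adjusted p = 3.03e-05).

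The nuclear-encoded respiratory chain, the mitochondrial counterpart of glycolysis in ATP supply, had a large share of lower genes. Of 75 tested genes, 48 were lower, none was higher and 27 were not called by edgeR, with a median log2 fold change of -0.26. Ndufv3 and Ndufs4 of complex I, Uqcrb of complex III and Atp5pb of ATP synthase had the smallest p, with log2 fold changes of -0.75, -0.57, -0.61 and -0.42 (edgeR adjusted p = 3.97e-07, 7.39e-05, 3.64e-05 and 4.58e-05). Without TMM scaling 22 were lower and 1 higher, and without overexpressing replicate 1 the count of lower genes was 32.

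**Figure D4:**
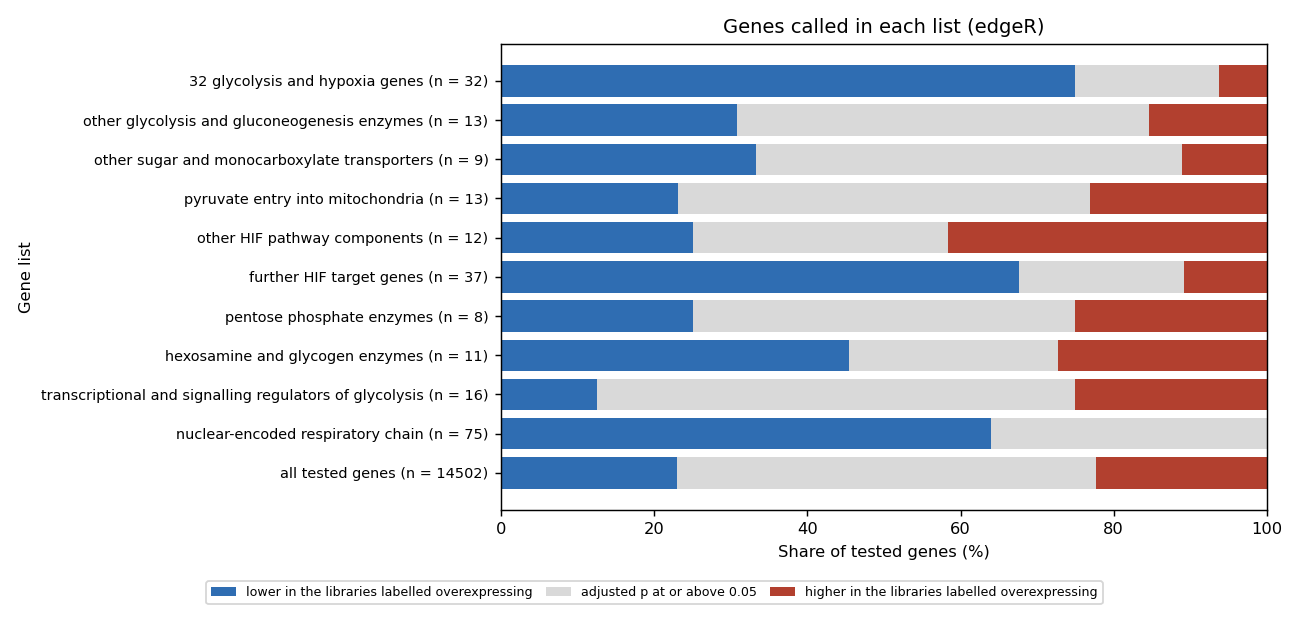
Share of the tested genes (%) called lower, not called and called higher in the libraries labelled overexpressing, for the 32 genes, for 9 further lists and for all 14502 tested genes (edgeR adjusted p under 0.05; n on each label). The 32 genes, the further HIF targets and the respiratory chain have the longest lower segments, and all tested genes have 23.0% lower and 22.3% higher.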

How the data were processed

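RNA-seq libraries of ADSC, 3 labelled overexpressing and 3 labelled mock per the titles, were compared on the raw counts per gene that the authors deposited. Tools named in the submitters' processing notes, without roles, are featureCounts 1.5.0-p3, StringTie 1.3.3b, HISAT2 2.0.5 and fastp, and the build is mm39. The sources used here give no annotation release, filter or strand setting. The table also holds FPKM values and group means deposited by the authors (a signal of scaled counts), which were not used, and the authors' own comparison: log2 fold changes and p-values as deposited, set beside the fit.

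Counts were tested with edgeR's quasi-likelihood test (version 4.0.16, R 4.3.3) after TMM scaling and filterByExpr (minimum count 10). Of 56748 genes, 28731 had counts and 14502 were tested. P-values were adjusted by Benjamini-Hochberg over the 14502 genes; calls needed 0.05 and no minimum fold. Changes are overexpressing minus mock labels, and SE is the log2 fold change over the square root of F. Shares within families used counts per kilobase and two-sided exact permutation tests. The procedure was tested on simulated data. Within each group, every 2 libraries differed by more than counting noise (chi-square per degree of freedom 3.55 to 7.47), so none was treated as a repeat deposit. That does not show that they came from separate cultures. Depth limits low genes: 3 counts are 0.160 to 0.185 CPM.

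The rule for names took all 32 genes, up to 4 genes of smallest p per further list, and the transduced subunits. The genes, lists and alternatives (RLE factors, no scaling factor, other filters, DESeq2 version 1.42.0, a replicate block, each library left out) were chosen with earlier results of these data known, and lists were described by counts without a set test. Where a symbol repeated (Aldoa), the protein-coding row with most counts was used. Of the list symbols, Tf, Gyg1 and Atp5f1 had no match in the table.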

Additional observations from a re-analysis of the deposited data

How the results depend on the processing

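Over 13 alternatives, 25 of the 32 genes kept their call and direction; the exceptions were Slc2a3, Gpi1, Pfkm, Gapdh, Ldhb, Slc16a1 and Ankrd37. The median log2 fold change of the 32 genes was -0.52, -0.41 without a scaling factor, -0.50 to -0.55 with 1 library left out, and -0.55 without both mock replicate 2 and overexpressing replicate 3, an alternative chosen after seeing the Gapdh values. The number of lower genes ran from 22 to 25 with 1 library left out and was 22 by DESeq2. Signs turned for Slc2a3 without mock replicate 2 (-0.02; from there to 0.15 with 1 library left out) or without both libraries (-0.068), Gpi1 without a scaling factor (0.00622), Ldhb without overexpressing replicate 2 (-0.040, against 0.13 without both libraries), and Gapdh without overexpressing replicate 3 (-1.27), mock replicate 1 (-0.03) or mock replicate 3 (-0.04); none of these turned values was called, and the cause was not tested. Gapdh was called higher without the low-count filter (adjusted p = 4.23e-05), without mock replicate 2 (log2 fold change 1.98), and without both libraries (log2 fold change 0.34, adjusted p = 0.0485).

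Counts in the further lists moved by over 1.5 times as follows. Without a scaling factor, lower genes were 1 of the other HIF components, 1 of the pentose phosphate genes, 2 of the hexosamine and glycogen genes and 22 of the respiratory chain genes, and 1 other respiratory chain gene was higher. By DESeq2, higher genes were 1 of the other glycolysis enzymes and 0 of the other transporters. Without both libraries these were again 1 and 0, with 1 higher gene of pyruvate entry, 1 lower HIF component, 3 lower hexosamine and glycogen genes and 30 lower respiratory chain genes. With 1 library left out, higher genes ran from 1 to 2 (other glycolysis), 0 to 1 (other transporters) and 1 to 3 (pyruvate entry). Lower genes then ran from 1 to 3 (HIF components) and 1 to 2 (pentose phosphate). Lower genes of the hexosamine and glycogen list (4 to 7) and of the respiratory chain (32 to 61) then moved by no more than 1.5 times. All 84 alternatives of the family shares kept their direction.

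With the replicate number as a replicate block, 24 of the 32 genes were lower and 2 higher, with 3297 lower and 3183 higher of all genes, and no call among the 32 changed. The shared numbers left no visible pairing over all genes: deviations of same-numbered libraries from their group means correlated by 0.0103, 0.0164 and 0.00337. With 3 libraries a group, such values cannot exclude that same-numbered libraries shared a culture or a day. Depth limits Aldoc, Car9 and Ankrd37, which had 17 to 207 counts a group.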

Other observations

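Among the 15 pairs of libraries, only 1 gene was at least 3-fold above every other library in both members of a pair at 10 CPM or more: Gapdh, in overexpressing replicate 3 and mock replicate 2, with a ratio of 5.51. This scan was chosen after the Gapdh values were seen, and the source of the difference was not tested.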
